A study of Mus musculus with 6 samples.

Results

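The genes described here are 50 symbols chosen by name for their part in synaptic vesicles and exocytosis: SNARE proteins, synaptotagmins, synapsins, vesicle membrane proteins, active zone proteins, vesicular glutamate transporters and clathrin and dynamin genes. Of these, 49 were analysed out of 55809 gene symbols in the count tables, and Vamp7 was not analysed here. All 49 met the choosing rule of at least 10 counts in 3 or more pools, and all 49 passed the low-count filter under which 20146 genes were tested. The rule's threshold left a wide margin. The 2 members nearest to it were Syn3, with 229 to 403 counts per pool, and Syt13, with 227 to 477 counts, followed by Snap23 with 954 to 1627 counts.

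The ganglia hold the cell bodies of sensory neurons with their glia, and came from 8-week-old C57BL6J mice. The 3 prenatal stress pools were offspring of dams, mated at 8 to 10 weeks of age, that were restrained in tubes under bright light for 30 min, 3 times a day, from E13 to E18 in the protocol label and from E13.5 to E18.5 in the series design. The 3 control pools were offspring of dams mated at the same age and left undisturbed. Each pool combined 3 mice by its title, which makes 9 mice per group as in the series design, whereas the protocol label gives 3 mice per group. The labels do not settle which count holds. Animals in a pool cannot be seen singly, and the labels give no litter or sex for a pool. P-values therefore measure the spread between pools. The question put to the data is whether offspring of stressed dams carry other levels of these transcripts as adults.

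A vesicle fuses with the plasma membrane when a vesicle SNARE (a VAMP) winds together with a pair of plasma membrane SNAREs (a syntaxin and a SNAP-25 relative). Synaptotagmins sense the calcium that triggers fusion, complexins clamp and assist the SNARE bundle, and RIM, Munc13, Bassoon and Piccolo proteins hold and prime vesicles at the active zone. After fusion the ATPase NSF pulls the SNAREs apart, and clathrin and dynamin retrieve the membrane. Sensory neurons use this machinery at their central terminals in the spinal cord, where glutamate is released, and also for peptide release from dense-core vesicles and for sending channels and receptors to the cell surface. The transcripts are counted in the ganglion, where the cell bodies lie and few synapses exist, so the values describe mRNA supply and not release.

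Gene counts per pool ranged from 51749334 to 87421228, and the 49 genes together took 1.44% ± 0.0265 of the counts in prenatal stress pools and 1.4% ± 0.00636 in control pools (SD, n = 3 each). Pan-neuronal markers were abundant in each pool, with summed levels of 17870 to 18940 CPM (counts per 1e6 counted reads) in prenatal stress pools and 18650 to 19200 CPM in control pools over 13 genes, as the tissue label requires. Markers of neighbouring tissue were uneven. The summed level of 8 skeletal muscle markers was 33.1 to 49.1 CPM in prenatal stress pools, against 16.2, 40.1 and 2354 CPM in control pools 1, 2 and 3. The 10 central nervous system glia markers summed to 48.5, 280.1 and 86.9 CPM in prenatal stress pools 1 to 3 and to 41.3, 239.5 and 195.7 CPM in control pools 1 to 3. The 8 spinal cord neuron markers summed to 24.3 to 72.4 CPM in prenatal stress pools and 22.7 to 81.1 CPM in control pools, with the highest value in pool 2 of each group. Satellite glia markers, 6 in all, summed to 2249 to 2375 CPM in prenatal stress pools and 2546 to 2734 CPM in control pools, without overlap. In bulk tissue, fewer cells of a type and less RNA per cell cannot be told apart, which holds for each difference below. The part of these markers in the results was not tested, and values without each pool are given where they change a call.

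The machinery was expressed at levels that spanned 392-fold per kilobase of transcript, and 34 of the 49 genes averaged over 100 CPM. Levels between genes are compared here as CPM per kilobase of the longest GENCODE M21 transcript, averaged over 6 pools. Cplx1, the complexin of fast release, was highest at 376 CPM per kilobase, followed by Snap25 at 281, the synaptotagmin relative Syt11, which does not bind calcium, at 266, the vesicle protein synaptophysin (Syp) at 234 and Vamp2 at 232. The lowest were Syt13 at 1.32, Syn3 at 0.959 and the priming factor Unc13b at 3.16 CPM per kilobase. By CPM alone, the 6 most abundant genes made up 39.4% of the CPM of all 49.

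**Figure D1:**
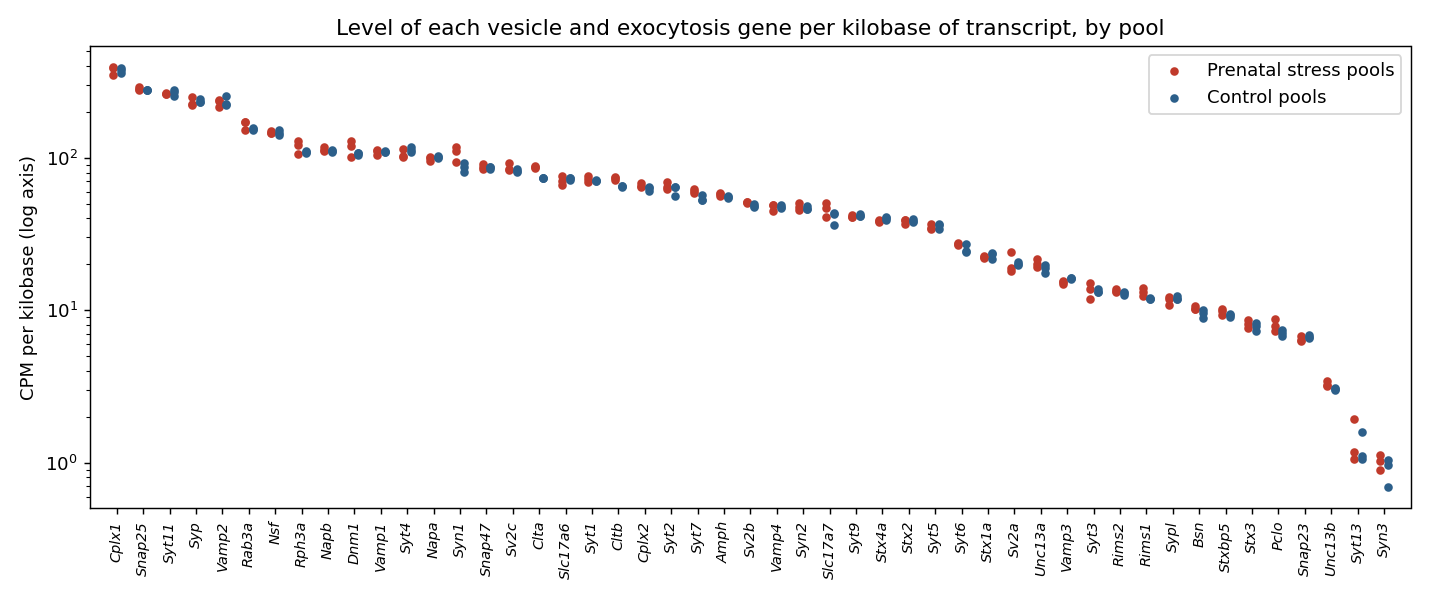
Level of each of the 49 genes in CPM per kilobase of its longest transcript (log axis), with the 3 prenatal stress pools in red on the left of each gene and the 3 control pools in blue on the right. Genes are ordered by mean level, from Cplx1 at 376 to Syn3 at 0.959 CPM per kilobase, and the pools of a gene lie close together.

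Paralogues stood at unequal levels, and in most families their ratios overlapped between groups. Per kilobase, Vamp1 reached 0.472 ± 0.00749 of the level of Vamp2 in prenatal stress pools and 0.472 ± 0.0371 in control pools (SD, n = 3 each). Syt2, the fast synaptotagmin, stood at 0.904 ± 0.0802 of Syt1 in prenatal stress pools and 0.872 ± 0.0703 in control pools. Sv2c, which with its relatives Sv2a and Sv2b is a glycoprotein of the vesicle membrane, was the main member of its family: Sv2b stood at 0.587 ± 0.0304 of it in prenatal stress pools and 0.586 ± 0.0254 in control pools. Snap23, the SNAP-25 relative of non-neuronal cells, was at 0.0228 ± 0.0011 of Snap25 in prenatal stress pools and 0.0239 ± 0.00047 in control pools. In each of these 4 families the groups overlapped. Of the ratios computed, those of Clta to Cltb and of Syn2 to Syn1, given below, did not overlap. Nor did that of Rims2 to Rims1, lower at 1.03 ± 0.0392 in prenatal stress pools and 1.08 ± 0.0188 in control pools.

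The 2 glutamate transporters that load vesicles also had overlapping ratios. Slc17a6 encodes VGLUT2, found in most sensory neurons, and Slc17a7 encodes VGLUT1, typical of large myelinated ones. The ratio of Slc17a7 to Slc17a6 per kilobase was 0.663, 0.759 and 0.538 in prenatal stress pools and 0.59, 0.489 and 0.599 in control pools. Slc17a6 stood at 290, 275 and 313 CPM in prenatal stress pools and at 304, 307 and 295 CPM in control pools (log2 fold change -0.05 ± 0.05 SE, 95% interval -0.16 to 0.07). Slc17a7 stood at 143, 155 and 125 CPM in prenatal stress pools and at 133, 112 and 132 CPM in control pools (0.17 ± 0.09, interval -0.05 to 0.39). Slc17a7 was 0.02 without pool 2 of both groups. The third transporter, Slc17a8 of C low-threshold mechanoreceptors, is outside the 49 and stood at 0.18 ± 0.12.

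Differences between prenatal stress and control pools were small in this machinery. Of the 49 genes, 1 passed edgeR's quasi-likelihood test at a Benjamini-Hochberg adjusted p under 0.05 over all genes tested, the clathrin light chain gene Clta, and it was higher. Among all 20146 genes, 0.129% passed in either direction with 0.0844% higher and 0.0447% lower. None of the 49 was called lower, where 1 had an unadjusted p under 0.05 as lower and DESeq2 also called 0. The log2 fold changes of the 49 ran from -0.09 to 0.30 with a median of 0.04, against a median of 0.01 over all genes tested, and 33 were positive and 16 negative. For 44 of the 49 the 95% interval of the difference lay within 1.25-fold in both directions, as it did for 10553 of all 20146 genes. The 5 of the 49 whose interval reached past 1.25-fold were Syn1, Syn3, Syt13, Slc17a7 and Dnm1. An unadjusted p under 0.05 was reached by 8 genes that were higher and 1 that was lower, where 6.01% and 5.11% of all genes reached it. The prenatal stress and control pools did not overlap for 11 genes that were higher and 2 that were lower, where 9.33% and 8.76% of all genes did not overlap. Expression differs between the 49 genes and the rest (median 182 CPM against 11.1 CPM), so these shares are set side by side as a description.

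**Figure D2:**
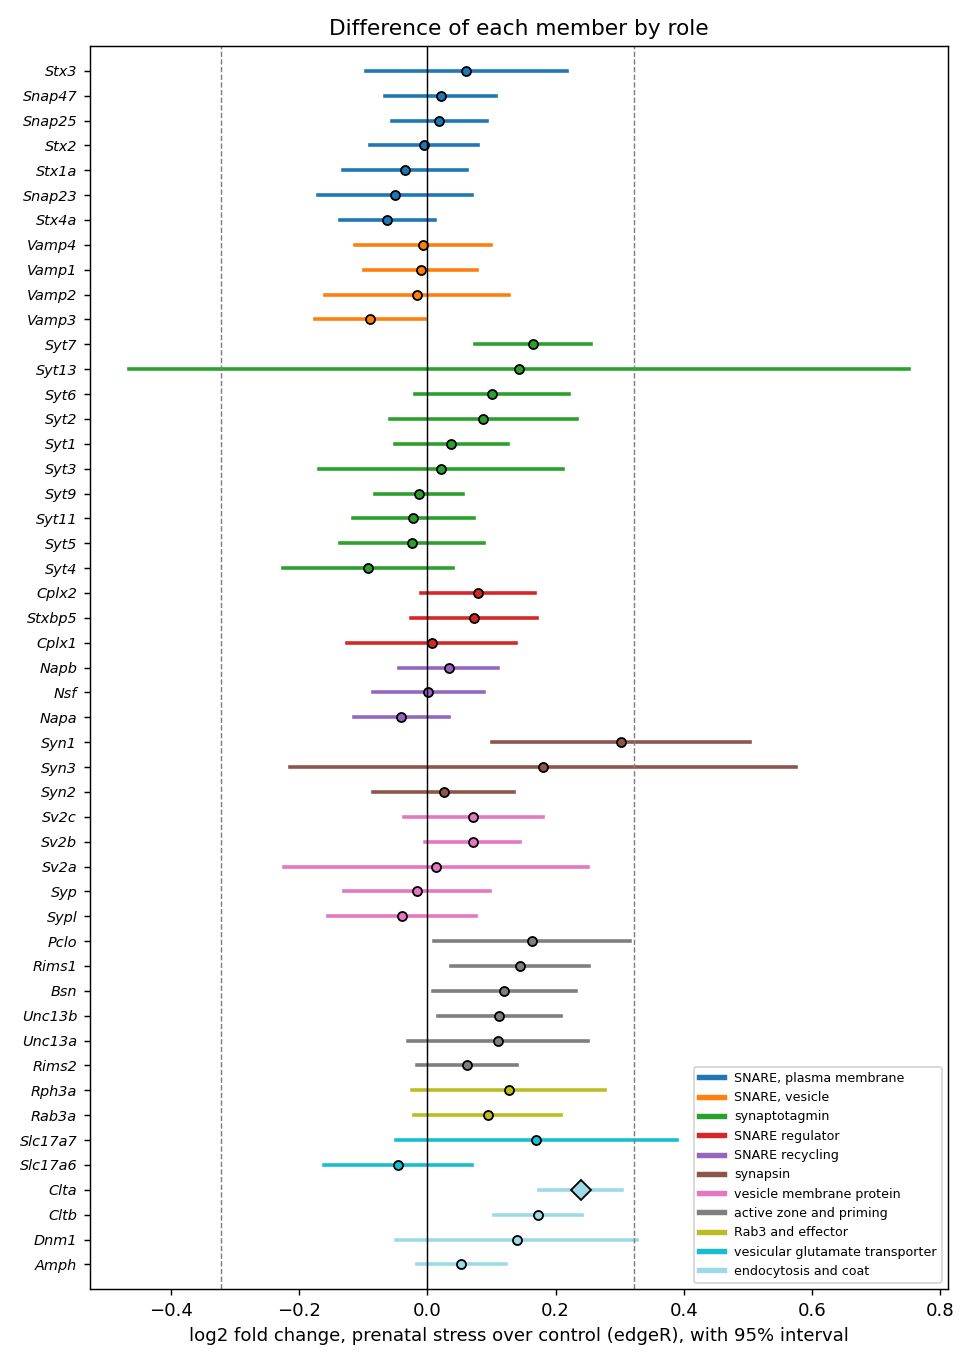
log2 fold change of prenatal stress over control for the 49 genes, coloured by role, with 95% intervals from edgeR and dashed lines at 1.25-fold in either direction. Clta, the diamond, is the gene that passed the test at 0.24, and 44 of the 49 intervals lie between the dashed lines.

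Of the 49 genes, Clta had the smallest p. It encodes light chain A of clathrin, the protein that cages budding vesicles at the plasma membrane and the trans-Golgi network. Clta stood at 147, 149 and 150 CPM in prenatal stress pools, against 125, 126 and 126 CPM in control pools. The groups did not overlap, at 149 ± 1.74 CPM in prenatal stress pools and 126 ± 0.477 CPM in control pools (SD, n = 3 each). Counts of 8192 to 11002 per control pool carry more counting noise than this control SD, so it likely understates the spread. Clta rose by 18.1% (interval 12.9% to 23.5%; log2 fold change 0.24 ± 0.03 SE, edgeR adjusted p = 0.0402). The call is near its threshold: leaving out any 1 pool gave log2 fold changes of 0.23 to 0.24 with edgeR adjusted p from 0.0995 to 0.311, and with the replicate number as a block the adjusted p was 0.117. With an offset for GC content and length the log2 fold change was 0.28 (edgeR adjusted p = 0.0416).

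Cltb encodes the other light chain, and it had the second smallest p of the 49. It stood at 233, 236 and 228 CPM in prenatal stress pools, against 203, 208 and 207 CPM in control pools, so the groups did not overlap. Its log2 fold change was 0.17 ± 0.03 (interval 0.10 to 0.24) and it missed the call (edgeR adjusted p = 0.156, DESeq2 adjusted p = 3.54e-05). Per kilobase, the ratio of Clta to Cltb was 1.17, 1.17 and 1.22 in prenatal stress pools and 1.15, 1.12 and 1.13 in control pools, again without overlap. The other coat and fission genes were less apart. Dnm1, the neuronal dynamin that cuts vesicles from the membrane, stood at 552, 596 and 469 CPM in prenatal stress pools and at 496, 478 and 494 CPM in control pools (0.14 ± 0.08, edgeR adjusted p = 0.558), and prenatal stress pool 3 was below the control pools. Amph, amphiphysin, which brings dynamin to clathrin-coated pits, stood at 0.05 ± 0.03 (edgeR adjusted p = 0.544). Cltc, the clathrin heavy chain, is outside the 49 and stood at 0.10 ± 0.05 (edgeR adjusted p = 0.548). Of the 5 listed subunit genes of AP2, the adaptor that joins clathrin to the plasma membrane, 2 were positive and 3 negative. Ap2m1 was lower without overlap, at 457, 473 and 457 CPM in prenatal stress pools, against 478, 485 and 483 CPM in control pools (-0.06 ± 0.03, edgeR adjusted p = 0.497).

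Printed here are the promoters of both light chain genes, which had the 2 smallest p of the 49, and of Syn1, which had the largest log2 fold change. Syt7 had a smaller p than Syn1, and its promoter is not printed. Each window runs from 250 bases before to 50 bases after a RefSeq transcript start on GRCm38.p6 and is read 5′ to 3′ on the gene's strand. RefSeq lists 2 starts for Clta, at chr4:44004193-44004492 and chr4:44012420-44012719, both on the plus strand. The Cltb window is chr13:54611324-54611623 and the Syn1 window is chrX:20920869-20921168, both on the minus strand. Capitals mark CCAAT boxes (CCAAT on either strand) in Clta, the cyclic AMP response element (CRE, TGACGTCA, which reads the same on both strands) in Cltb and Syn1, and the left part (TTCAGCACC) of RE1, the site bound by the neuronal gene repressor REST, in Syn1.
Clta, first start: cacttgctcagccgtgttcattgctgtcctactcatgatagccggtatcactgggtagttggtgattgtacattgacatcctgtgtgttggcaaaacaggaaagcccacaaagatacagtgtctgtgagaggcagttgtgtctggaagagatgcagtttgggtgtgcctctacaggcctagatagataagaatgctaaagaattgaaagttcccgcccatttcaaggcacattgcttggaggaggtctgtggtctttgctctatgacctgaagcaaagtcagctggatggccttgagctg
Clta, second start: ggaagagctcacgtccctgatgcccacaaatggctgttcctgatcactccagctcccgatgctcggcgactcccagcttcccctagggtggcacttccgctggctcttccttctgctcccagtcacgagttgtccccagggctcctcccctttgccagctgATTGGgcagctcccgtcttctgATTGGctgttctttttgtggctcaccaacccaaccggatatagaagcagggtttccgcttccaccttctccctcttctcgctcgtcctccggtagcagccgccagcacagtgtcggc
Cltb: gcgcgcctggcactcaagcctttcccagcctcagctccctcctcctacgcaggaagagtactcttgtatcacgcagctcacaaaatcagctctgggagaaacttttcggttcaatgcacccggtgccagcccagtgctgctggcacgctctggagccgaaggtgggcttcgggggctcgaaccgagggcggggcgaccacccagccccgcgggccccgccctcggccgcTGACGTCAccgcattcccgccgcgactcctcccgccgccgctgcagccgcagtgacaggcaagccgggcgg
Syn1: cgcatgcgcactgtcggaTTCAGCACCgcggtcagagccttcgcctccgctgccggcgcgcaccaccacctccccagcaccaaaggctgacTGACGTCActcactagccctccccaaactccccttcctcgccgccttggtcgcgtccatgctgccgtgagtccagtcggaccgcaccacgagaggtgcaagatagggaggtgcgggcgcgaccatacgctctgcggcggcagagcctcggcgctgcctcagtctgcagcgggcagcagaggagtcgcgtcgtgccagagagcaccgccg
The first Clta window held no CCAAT box, 3 CpG dinucleotides and a GC content of 48%, and the second held 2 CCAAT boxes, 14 CpG dinucleotides and a GC content of 60%. The counts are per gene, so the reads of the 2 starts cannot be told apart. The Cltb and Syn1 windows held 29 and 33 CpG dinucleotides and 1 CRE each, ending 13 bases before the start in Cltb and 151 bases before it in Syn1.
RefSeq windows were found for 40 of the 50 genes, 56 windows in all. The CRE was in 3 of them (5.36%), those of Cltb, Napa and Syn1, against 1.79% of all 32851 windows. Napa, an adaptor of NSF, did not share the direction of the other genes with a CRE (log2 fold change -0.04 ± 0.03). The RE1 left part was in 2 windows (3.57%), Syn1 and Unc13a, against 0.371% of all windows. The GC box (GGGCGG, either strand) was in 62.5% of the windows of these genes against 35.7% of all windows, and the CCAAT box in 23.2% against 37.4%. A match describes the letters in the window and not a working site.

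The synapsins, which tether vesicles in the reserve pool, differed among themselves. Syn1 stood at 360, 382 and 304 CPM in prenatal stress pools, against 300, 265 and 283 CPM in control pools. The groups did not overlap, though prenatal stress pool 3 lay close to control pool 1. Syn1 averaged 349 ± 40.2 CPM in prenatal stress pools and 283 ± 17.8 CPM in control pools (SD, n = 3 each), a log2 fold change of 0.30 ± 0.09 (interval 0.10 to 0.50) that missed the call (edgeR adjusted p = 0.327, DESeq2 adjusted p = 0.0164). It was 0.19 without pool 2 of both groups. Syn2 stood at 182, 196 and 174 CPM in prenatal stress pools and at 186, 179 and 178 CPM in control pools (0.03 ± 0.05). The ratio of Syn2 to Syn1 per kilobase was 0.429, 0.433 and 0.485 in prenatal stress pools and 0.523, 0.572 and 0.53 in control pools, lower without overlap. An exact permutation test of 3 pools against 3 cannot give a p under 0.1, so none is given for ratios. Syn3 was near the bottom of the range, at 4.87 ± 0.573 CPM in prenatal stress pools and 4.29 ± 0.872 CPM in control pools. Exons of Timp3 on the other strand cover 14.1% of its exon bases.

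**Figure D3:**
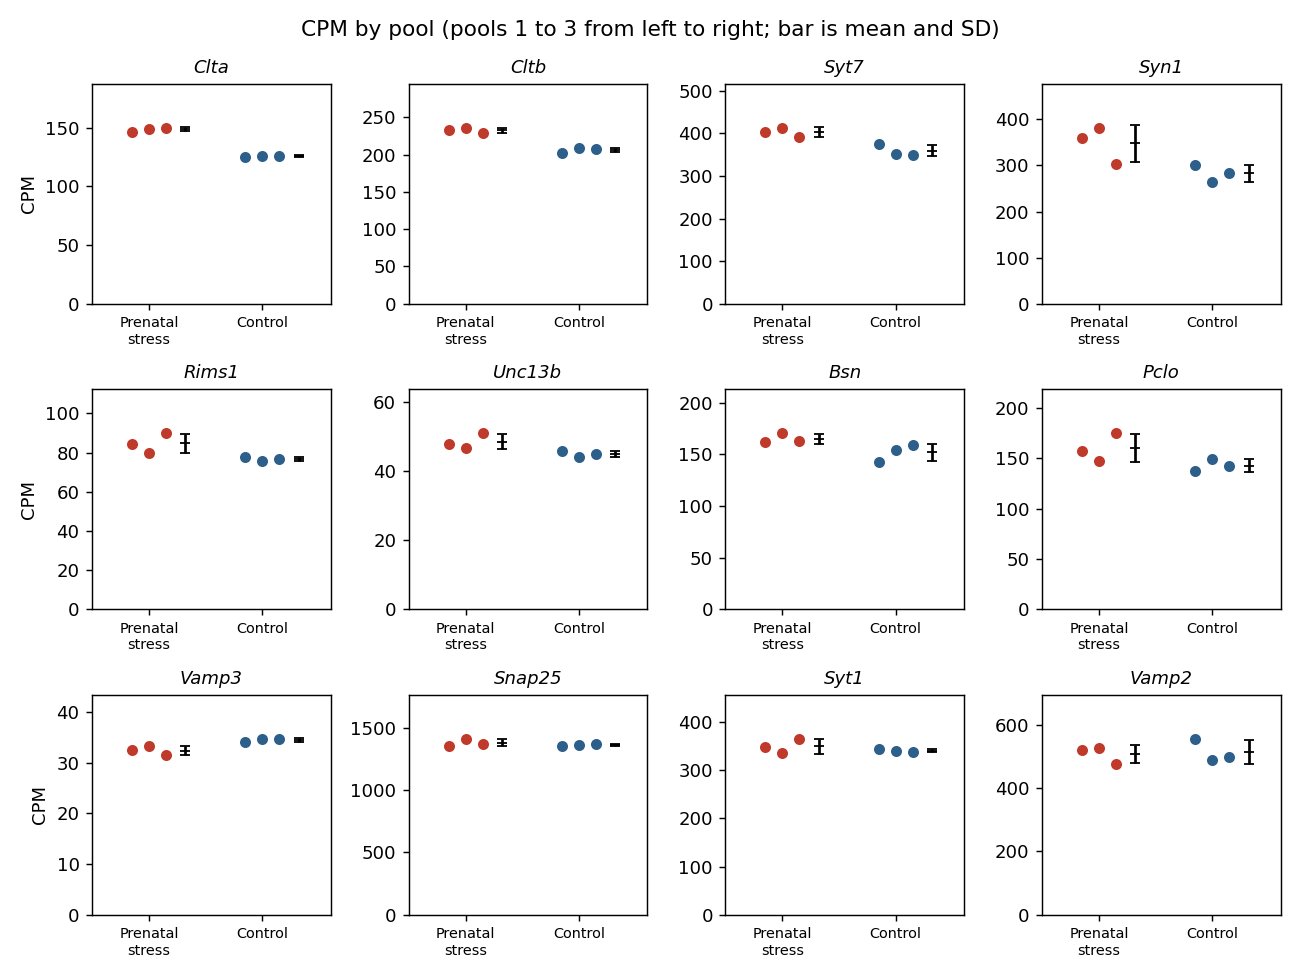
CPM in each pool for 12 genes, prenatal stress pools in red on the left and control pools in blue on the right, with the mean and SD as a black bar and axes from 0. Clta, Cltb, Syt7, Syn1, Rims1, Unc13b and Bsn are higher and Vamp3 is lower in prenatal stress pools without overlap, while Pclo, Snap25, Syt1 and Vamp2 overlap.

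Among the synaptotagmins, Syt7 was set apart. Syt7 is a slow, high-affinity calcium sensor that serves asynchronous release, vesicle replenishment and lysosome exocytosis. It stood at 403, 413 and 391 CPM in prenatal stress pools, against 375, 352 and 350 CPM in control pools. The groups did not overlap, and the log2 fold change of 0.16 ± 0.04 (interval 0.07 to 0.26) missed the call (edgeR adjusted p = 0.273, DESeq2 adjusted p = 0.0102). An exon of a long noncoding RNA on the other strand, Gm26859, covers 5.13% of the exon bases of Syt7. Larger shares are covered on the other strand in genes such as Syp (16.8%), Syt4 (14.5%), Syn3 (14.1%) and Snap47 (11.6%). The strand setting of the counter is not given in the sources used here.
The fast sensors overlapped between groups. Syt1 stood at 347, 336 and 365 CPM in prenatal stress pools and 344, 340 and 337 CPM in control pools (0.04 ± 0.04, interval -0.05 to 0.13). Syt2 stood at 427, 477 and 445 CPM in prenatal stress pools and 388, 442 and 440 CPM in control pools (0.09 ± 0.06). Syt11 stood at 1343, 1319 and 1310 CPM in prenatal stress pools and 1278, 1392 and 1362 CPM in control pools (-0.02 ± 0.04). Syt9, a sensor of dense-core vesicle release, stood at 159 ± 2.56 CPM in prenatal stress pools and 160 ± 2.07 CPM in control pools (SD, n = 3 each; -0.01 ± 0.03).
The remaining synaptotagmins had log2 fold changes of -0.09 (Syt4) to 0.14 (Syt13) and overlapped. Syt13 followed the spinal cord markers by pool, at 3.96, 7.24 and 4.4 CPM in prenatal stress pools and 3.96, 6.02 and 4.15 CPM in control pools, highest in pool 2 of each group. Pool 2 of each group was also the highest for 8 other genes of the 49, Sv2a and Nsf among them. The share over all genes was not counted, so this number is no result about the 49. The Syt13 log2 fold change of 0.14 became -0.18 without prenatal stress pool 2.

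The active zone and priming genes all had positive values, and these were smaller with an offset for GC content and length. All 6 were positive with a median log2 fold change of 0.12, 4 had an unadjusted p under 0.05 as higher (6.01% of all genes) and 4 did not overlap as higher (9.33% of all genes), while 0 passed the edgeR test (smallest adjusted p = 0.366) and 0 passed DESeq2 (smallest adjusted p = 0.202).
Rims1, a scaffold that ties vesicles to calcium channels, stood at 84.3, 80.1 and 90 CPM in prenatal stress pools, against 77.7, 75.8 and 76.6 CPM in control pools (0.14 ± 0.05). Its relative Rims2 stood at 64.4, 63.5 and 66.1 CPM in prenatal stress pools and 62.2, 60.5 and 63.1 CPM in control pools (0.06 ± 0.03). Both were higher in prenatal stress pools without overlap, Rims2 by under 1 CPM between the nearest pools.
Of the Munc13 priming factors, Unc13b stood at 47.7, 46.7 and 50.9 CPM in prenatal stress pools, against 45.7, 44 and 44.8 CPM in control pools (0.11 ± 0.04). Unc13a stood at 197, 206 and 223 CPM in prenatal stress pools and 181, 194 and 204 CPM in control pools (0.11 ± 0.06), and the groups overlapped.
Bassoon (Bsn) and Piccolo (Pclo) are giant scaffolds of the active zone. Bsn stood at 162, 170 and 163 CPM in prenatal stress pools, against 142, 154 and 159 CPM in control pools (0.12 ± 0.05). Pclo stood at 158, 147 and 175 CPM in prenatal stress pools and 137, 149 and 143 CPM in control pools (0.16 ± 0.07), where prenatal stress pool 2 lay within the control range.
Of these 6, 4 have longest transcripts of over 10 kilobases, from 10255 bases (Unc13a) and 14754 (Unc13b) to 15938 (Bsn) and 20084 (Pclo), where the median of the 49 is 3892. With an offset for GC content and length fitted per pool, the median of the 6 was 0.05 (range 0.01 to 0.09) and 0 of 6 had an unadjusted p under 0.05. Unc13b was then 0.01, Bsn 0.02, Pclo 0.06 and Rims1 0.09, whereas Clta (0.28), Cltb (0.20) and Syn1 (0.31) were not smaller than without it. The offset fits GC content and length together, and it would also take up a group difference that follows them. The part of GC content or length in the values of these genes was not tested. Without prenatal stress pool 3, Rims1 was 0.09, Pclo 0.09 and the median of the 6 was 0.08, and 1 of 6 had an unadjusted p under 0.05; leaving out each other pool left 1 to 3 of 6.

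**Figure D4:**
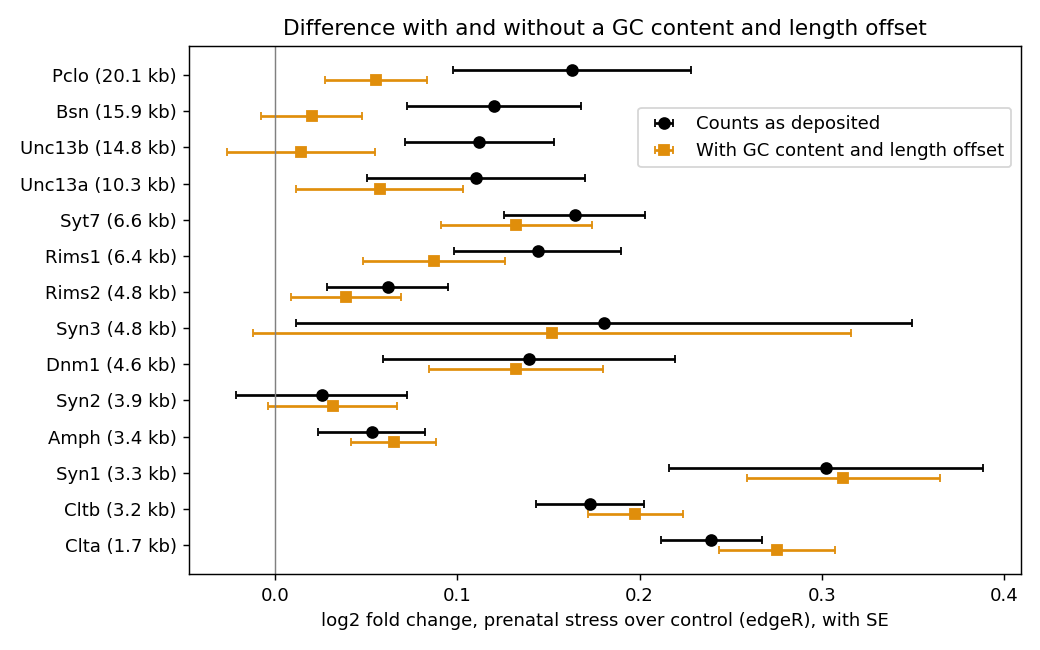
log2 fold change with its SE for 14 genes ordered from the longest transcript at the top to the shortest, as tested on the deposited counts (black) and with an offset for GC content and length (orange). Pclo, Bsn, Unc13b, Unc13a and Rims1 move towards 0, while Clta, Cltb and Syn1 move away from 0, to 0.28, 0.20 and 0.31.

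The SNARE core overlapped between groups. Snap25, the plasma membrane SNARE of neurons, stood at 1354, 1412 and 1372 CPM in prenatal stress pools and 1355, 1364 and 1366 CPM in control pools (0.02 ± 0.03, interval -0.06 to 0.09). Stx1a, its syntaxin partner, stood at 48.8, 47.9 and 48.2 CPM in prenatal stress pools and 50.6, 46.8 and 51.1 CPM in control pools (-0.03 ± 0.04). Vamp2, the vesicle partner, stood at 521, 528 and 476 CPM in prenatal stress pools and 557, 490 and 497 CPM in control pools (-0.02 ± 0.06). In all 3 the groups overlapped, and the intervals stayed within 1.25-fold.
Lower without overlap were 2 of the 49 genes, Vamp3 and Stx4a, where 8.76% of all genes were. Both are SNAREs that non-neuronal cells also use, as is Snap23, which overlapped (-0.05 ± 0.05). Vamp3, cellubrevin, stood at 32.5, 33.2 and 31.4 CPM in prenatal stress pools, against 34, 34.7 and 34.6 CPM in control pools (-0.09 ± 0.04, edgeR adjusted p = 0.442). Stx4a, a syntaxin of general surface delivery, stood at 54.9, 56.2 and 56.6 CPM in prenatal stress pools, against 59.5, 57.3 and 58.5 CPM in control pools (-0.06 ± 0.03, edgeR adjusted p = 0.507). Satellite glia markers were lower in the same pools, by a median log2 fold change of -0.20 over 6 genes. Of these 6, 0 passed the edgeR test and 4 had an unadjusted p under 0.05. The 13 pan-neuronal markers had a median of -0.02, and 3 were lower and 1 was higher without overlap. The part of either cell type in the values of Vamp3 and Stx4a was not tested. A processed pseudogene transcript matches Vamp3 at 94.5% identity over 309 bases, and reads with more than 1 alignment were not counted for any gene.
Of the other SNAREs, Vamp1, Vamp4, Stx2, Stx3, Snap23 and Snap47 had log2 fold changes of -0.05 to 0.06 with overlapping groups. The genes that recycle SNAREs also overlapped, with Nsf at 0.00 ± 0.04, Napa at -0.04 ± 0.03 and Napb at 0.03 ± 0.03. Nsf stood at 544, 566 and 545 CPM in prenatal stress pools and 535, 573 and 546 CPM in control pools.

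Higher without overlap were 1 of 3 SNARE regulators and 1 of 5 vesicle membrane proteins, where 9.33% of all genes were. Cplx2 was higher without overlap, at 322, 336 and 315 CPM in prenatal stress pools, against 296, 310 and 314 CPM in control pools (0.08 ± 0.04, edgeR adjusted p = 0.493). Cplx1 overlapped, at 824 ± 57.1 CPM in prenatal stress pools and 821 ± 30.7 CPM in control pools (SD, n = 3 each), and Stxbp5, tomosyn, which competes for syntaxin, stood at 0.07 ± 0.04. Sv2b was higher without overlap, at 283, 277 and 282 CPM in prenatal stress pools, against 265, 261 and 275 CPM in control pools (0.07 ± 0.03, edgeR adjusted p = 0.466). Sv2a, the glycoprotein bound by levetiracetam, stood at 81.4, 104 and 78.1 CPM in prenatal stress pools and 85.3, 89.1 and 86.9 CPM in control pools. Prenatal stress pool 2 lay above the control pools, and prenatal stress pools 1 and 3 lay below them. Syp stood at 634, 708 and 640 CPM in prenatal stress pools and 686, 664 and 655 CPM in control pools (-0.02 ± 0.05), overlapping. Sypl and Sv2c stood at -0.04 ± 0.05 and 0.07 ± 0.05. Rab3a, the vesicle GTPase, and its effector Rph3a, rabphilin, stood at 0.09 ± 0.05 and 0.13 ± 0.06, with prenatal stress pool 3 the lowest of the prenatal stress pools for both (238 and 442 CPM).

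The 49 genes spread more between prenatal stress pools than between control pools, with median coefficients of variation of 4.45% and 2.42%, against 7.15% and 5.88% over all genes tested. Prenatal stress pools 2 and 3 departed in opposite ways, along the GC content of the transcripts. Prenatal stress pool 3 was set against the mean of the other 2 prenatal stress pools. GC-rich transcripts such as Syn1, Dnm1, Slc17a7 and Syt3 were 0.25 to 0.29 log2 units below that mean. GC-poor ones such as Syt4 (0.17) and Slc17a6 (0.15) were above it. Not all genes followed: GC-rich Bsn stood at -0.03 and Unc13a at 0.15, and GC-poor Sypl at -0.145. Across the 49 genes the departure of this pool correlated with GC content at Pearson's r = -0.56 and Spearman's rho = -0.57. Over 19186 genes with a known GC content it was r = -0.175. For prenatal stress pool 2 the values were r = 0.41 and rho = 0.55, and r = 0.173 over all genes. The pools of 1 group share these differences, since each is set against the other 2, and genes of a library share its preparation, so the correlations describe these libraries. In the 3 control pools r ranged from -0.20 to 0.16. Across the 49 genes the log2 fold change of prenatal stress over control correlated with GC content (Pearson's r = 0.351) and with log2 transcript length (r = 0.331). Over the 19186 genes its r with GC content was -0.0212. The part of GC content or length in these fold changes was not tested. Prenatal stress pool 3 was also the shallowest library and had the lowest summed level of 6 Schwann cell markers, 6012 CPM against 6883 to 8008 CPM in control pools. The part of depth, GC content or Schwann cell RNA in this departure was not tested.

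**Figure D5:**
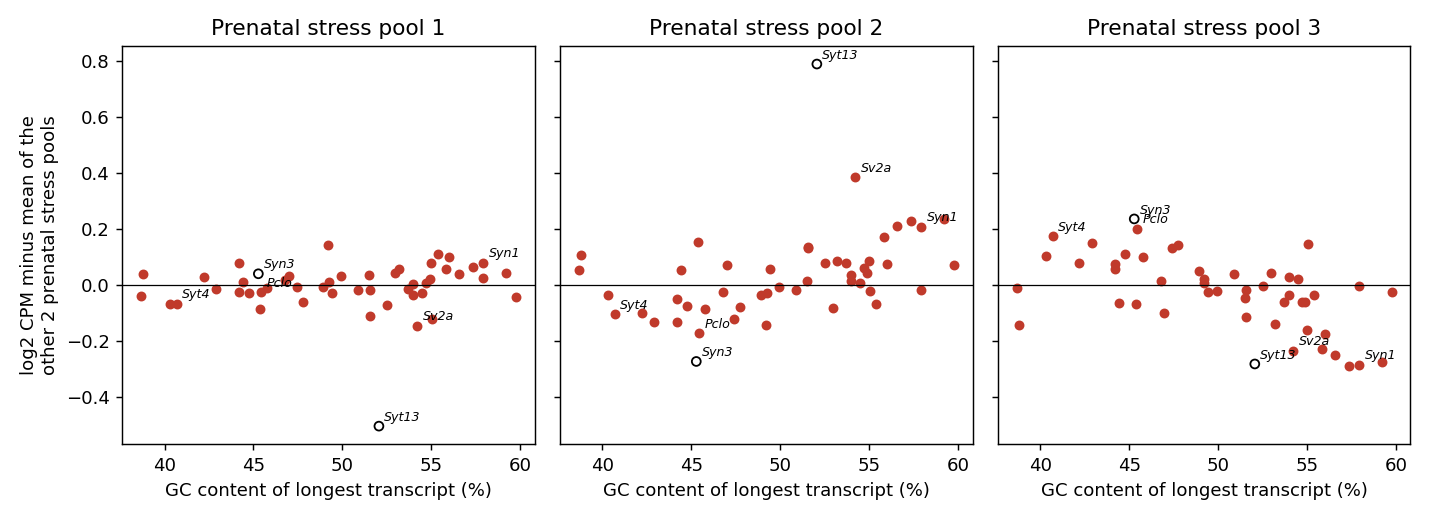
Departure of each prenatal stress pool from the mean of the other 2, in log2 CPM, against the GC content of the longest transcript in percent, with 1 point per gene and open circles for Syt13 and Syn3, the genes under 10 CPM. Points slope up in pool 2 (r = 0.41) and down in pool 3 (r = -0.56).

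Other vesicle machinery was read from a separate list. Of 80 further genes listed for trafficking, docking and endocytosis, 77 were tested, 0 passed the edgeR test (smallest adjusted p = 0.366), and 10 had an unadjusted p under 0.05, 6 of them higher and 4 lower. Their median log2 fold change was 0.02, with 47 positive and 30 negative, and 17 did not overlap between groups. Over all genes, 11.1% had an unadjusted p under 0.05 and 18.1% did not overlap in either direction, and the shares of this list lie near these. The 3 with the smallest p were Rab27a, a GTPase of secretory granules and lysosome-related organelles (-0.17 ± 0.06, edgeR adjusted p = 0.366), Syt10 (0.50 ± 0.17, edgeR adjusted p = 0.378) and Dnm3, a dynamin (0.18 ± 0.06, edgeR adjusted p = 0.378). Rab27a stood at 41.8, 39.8 and 43.5 CPM in prenatal stress pools, against 46.7, 50.2 and 44.2 CPM in control pools. Dnm3 stood at 506, 473 and 552 CPM in prenatal stress pools, against 428, 452 and 469 CPM in control pools. Syt10 was under 1 CPM in each pool.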

How the data were processed

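Deposited values were raw read counts per gene symbol, with 1 file per library, used without change. Poly-A selected, stranded, paired-end libraries were made, per the labels' protocols, and the submitters' processing notes list HTSeq 0.9.1, STAR 2.4 and FastQC, besides a pair of builds (mm10, GRCm39). The sources used here do not say which of these builds served for counting, nor how HTSeq treated strand. Summary rows that name no gene entered neither library sizes nor tests. They held 15.3% to 16.2% of the reads in a file, among them those that fit more than 1 gene (1.63% to 1.69%) or aligned more than once (7.05% to 7.7%). No 2 libraries agreed within sampling noise (chi-square per degree of freedom 10.89 to 37 over 15 pairs), so all 6 pools were kept as separate replicates.

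The test of group used edgeR 4.0.16 under R 4.3.3 (TMM factors, filterByExpr with a minimum count of 10, quasi-likelihood F test, Benjamini-Hochberg adjustment over all 20146 genes). The SE is the log2 fold change divided by the square root of F, intervals are 95% and use 7.33 degrees of freedom, and levels are CPM with TMM factors. Precision is limited by having 3 pools a group, and for genes such as Clta by counting noise as well. The fit was tested on simulated data. Alternatives were DESeq2 1.42.0, RLE scaling, no filter, a robust spread, each pool left out, the replicate block, and an offset for GC content and length of the longest GENCODE M21 transcript, known for 95.2% of genes. Overlaps and near copies come from that annotation and minimap2 2.31-r1302 (90% identity over 200 bases), promoters from RefSeq on GRCm38.p6. The labels give replicate numbers 1 to 3 in both groups. Same-numbered pools had correlated deviations across genes (0.337, 0.218 and 0.13), and unlike-numbered pools ran from -0.3 to 0.122. The third pair hardly differed from prenatal stress pool 2 with control pool 3 (0.122). Deviations are taken from the group mean, so these values depend on one another. The block was read as a pairing of unstated origin. All members were open to be named; full values went to those that passed, the 8 of smallest p and the defining gene of each role, and other vesicle genes were named if they passed or were the 3 of smallest p. Full values for Vamp3, Stx4a, Syt2, Syt11, Syt13, Syn2, Cplx2, Sv2b and Rims2, and the naming of Cltc, Ap2m1, Slc17a8 and Slc18a3, are outside that rule and were chosen after their values were seen. The members and lists were chosen with earlier results of these data known.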

Additional observations from a re-analysis of the deposited data

How the results depend on the processing

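The count of members called higher, 1 on the deposited counts with edgeR, was also 1 with RLE scaling, without the low-count filter, with a robust spread and with the GC content and length offset. It was 4 with DESeq2 (Clta, Cltb, Syn1 and Syt7). It was 0 with the replicate block, 0 with the GC content and length offset together with the replicate block (Clta adjusted p = 0.0509), 0 without pool 2 of both groups, and 0 to 0 when each pool was left out in turn. No member was called lower in any of the 14 alternatives. The median log2 fold change of the members was 0.020 with the GC content and length offset, 0.020 with that offset and the replicate block, and 0.0303 to 0.0536 when each pool was left out. The count over all genes, 26, was 330 with DESeq2, 49 without the filter, 40 with the GC content and length offset, 1 without pool 2 of both groups and 2 to 14 when each pool was left out. The replicate block changed no call of a member other than that of Clta. Of the 49 members, 29 kept their sign in all 14 alternatives, and the 20 that did not had log2 fold changes of at most 0.143 in size. Fewer pools lower the number of calls by construction; the cause of the other changes was not tested.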

Other observations

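Slc18a3, the vesicular acetylcholine transporter of motor neurons, had 0 to 0.167 CPM in prenatal stress pools and 0.0721, 1.22 and 0.356 CPM in control pools 1 to 3. Slc32a1, the vesicular transporter of inhibitory spinal neurons, stood at 0.232, 4.01 and 0.6 CPM in prenatal stress pools 1 to 3 and at 0.0721, 6.12 and 1.61 CPM in control pools 1 to 3. Both were highest in pool 2 of their group, as were Gad1, Gad2 and Slc6a5, other markers of inhibitory spinal neurons. Among the 49 genes, 9 were highest in pool 2 of both groups, Syt13 and Sv2a among them, and the share over all genes was not counted. Slc17a7, the transporter that central neurons also use, was highest in pool 2 of the prenatal stress group (155 CPM) and lowest in pool 2 of the control group (112 CPM), and its log2 fold change of 0.17 was 0.02 without these pools. The part of spinal cord RNA in these values was not tested.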
